A study of Homo sapiens with 2 samples.

Results

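The genes described here encode the mitochondrial ribosomal proteins of MKN28, an established human gastric adenocarcinoma line. They were chosen by symbol: every gene whose platform symbol is MRPL or MRPS followed by a number and at most 1 letter, on probe sets that name 1 gene. The rule found 75 of 19775 genes, of which 48 carry MRPL names (large subunit) and 27 carry MRPS names (small subunit), read by 140 probe sets. A probe set is several short probes against 1 part of a transcript. Each gene was given the value of its brightest probe set, that is the one with the highest mean log2 intensity over the arrays.

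There were 2 arrays, 1 for each group. The first held RNA from MKN28 cells labelled Sox2 overexpression, which per the labels' protocols were infected with a lentivirus that carries Sox2 and puromycin resistance, then selected with puromycin. The second held RNA from MKN28 cells labelled control (NC), and the labels do not say whether these cells received a virus or puromycin. Neither the number of infected clones nor the promoter driving Sox2 is given in the sources used here, and cell line registers give MKN28 as misidentified, being derived from the gastric line MKN74. With 1 array per group there is no replicate error and no test between the groups, so every value below is a description of these 2 arrays.

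The mitochondrial ribosome translates the few respiratory chain and ATP synthase proteins that are encoded in mitochondrial DNA. Its own proteins are all encoded in the nucleus, made in the cytosol and imported, and are then assembled on ribosomal RNAs transcribed inside the organelle. Part of them have counterparts in the bacterial ribosome and part are particular to mitochondria. Promoters of such genes are known for sites of ETS factors (among them GABPA), of NRF1 and of YY1.

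The promoters are shown first, since part of the members share short sequence motifs in them. RefSeq's promoter table (GRCh38.p14; 250 bases before to 50 after the start) held 67 of the 75 members. The stretches below are bases 120 to 1 before the start, 5′ to 3′ on the strand of the gene, of 3 members with matches and of 1 without. The first 3 read lower and the last read higher in the array labelled Sox2. This choice shows no link of matches with direction, which was not tested. MRPL12 also read lower and holds none of the motifs counted below, while MRPL38 read higher and holds ETS and YY1 matches. Capitals mark matches to the ETS core CCGGAAG or to the NRF1 motif on either strand.
MRPL54, chr19:3762562-3762681, plus strand: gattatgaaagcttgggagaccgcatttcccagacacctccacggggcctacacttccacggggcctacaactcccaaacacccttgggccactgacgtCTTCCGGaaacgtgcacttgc
MRPL20, chr1:1407294-1407413, minus strand: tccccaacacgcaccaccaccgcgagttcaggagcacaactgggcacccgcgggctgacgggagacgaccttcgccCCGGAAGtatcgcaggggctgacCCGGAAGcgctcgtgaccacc
MRPL17, chr11:6683341-6683460, minus strand: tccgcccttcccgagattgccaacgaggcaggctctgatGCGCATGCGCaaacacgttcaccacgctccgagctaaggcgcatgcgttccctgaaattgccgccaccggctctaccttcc
MRPL1, chr4:77862710-77862829, plus strand: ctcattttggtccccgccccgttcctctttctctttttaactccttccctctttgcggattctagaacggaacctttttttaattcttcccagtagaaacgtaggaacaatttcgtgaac

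The YY1 letters AAGATGGC usually lay after the start rather than before it. The 30 bases from the start of MRPL20 and of MRPL38 show this, with the match in capitals.
MRPL20, chr1:1407264-1407293, minus strand: atttccgacccgggcAAGATGGCagcggcg
MRPL38, chr17:75904855-75904884, minus strand: ggagggAAGATGGCggcgccctggtggcga

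The ETS core stood in 28 of the 67 member promoters (41.8%), against 14.8% of the 11182 promoters of genes past the filter on dim values and 10.7% of all 27305 promoters. The YY1 letters stood in 19 (28.4%), against 4.36% and 3.03%. For MRPL and MRPS genes the ETS shares were 39.0% and 46.2%, and the YY1 shares 29.3% and 26.9%. The median position of the 37 ETS matches was 22 bases before the start, and 14 of the 20 YY1 matches lay after the start. Both motifs together were held by 8 members (11.9%), against 1.02% of genes past the filter. The NRF1 motif stood in 9 members (13.4%), close to the 12.7% of genes past the filter. The E-box CACGTG (6 members, 8.96% against 9.29%) and the CCAAT letters (20 members, 29.9% against 35.7%) were no more frequent in members. TATAAA stood in 2 members (2.99% against 7.78%) and the SOX letters CATTGTT in 1 (1.49% against 2.16%). All motifs were searched on both strands, some can overlap one another, and a match is a string of letters, not a shown site. The plot of motif shares gives these values by subunit.

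**Figure D1:**
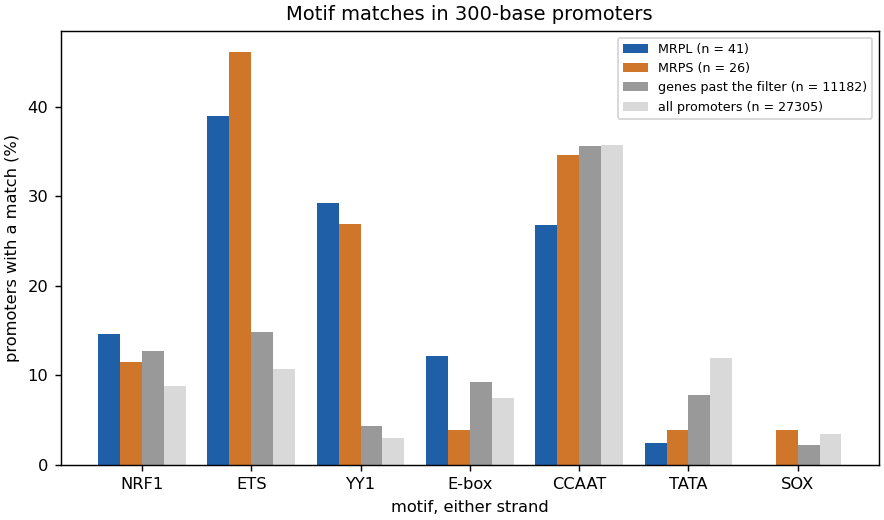
Share of 300-base promoters (y axis, percent) with at least 1 match to each of 7 motifs (x axis) for 41 MRPL and 26 MRPS promoters, 11182 promoters of genes past the filter and all 27305 promoters. The ETS and YY1 bars of both subunits stand above the grey background bars, while the NRF1 bars (14.6% and 11.5%) lie near theirs (12.7% of genes past the filter).

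Differences between the arrays are given next by motif, as a description of few genes. Members past the filter with the ETS core had a median log2 difference (labelled Sox2 minus labelled control) of -0.12 (25 genes) and those without it -0.079 (34 genes). With and without the YY1 letters the medians were -0.031 (18 genes) and -0.087 (41 genes). With and without the NRF1 motif they were -0.26 (7 genes) and -0.084 (52 genes), with the E-box 0.028 (6 genes) and -0.12 (53 genes), and with the CCAAT letters -0.13 (18 genes) and -0.042 (41 genes). Among the 7 with the NRF1 motif, MRPL30 (-0.40) and MRPL36 (-0.26, the median itself) passed the filter on the control array alone. These had to be lower, so that median rests partly on the filter. The rest ran from -0.60 (MRPL17) to 0.14 (MRPL45). The TATA and SOX letters were held by too few members to give a median.

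The overexpressed gene itself gave no clear check of the labels. SOX2 had intensities of 172 (labelled Sox2) and 123 (labelled control) by its brightest probe set, 1.40-fold, and log2 differences from -0.46 to 0.31 by its others. Medians of all probe sets were 34.25 and 34.26, and the 95th percentiles were 162 and 156. Of the epithelial markers EPCAM was below the filter in both arrays, at 4.96 and 6.32, while KRT8, KRT18, KRT19 and CDH1 passed it and lay between 37.7 and 91.3. Of 7 markers of mesenchymal, leukocyte and endothelial cells, 6 passed, with differences from -0.072 to 0.44, none of 2-fold. The mesenchymal marker VIM read 5833 and 4288 and COL1A1, a fibroblast collagen, 557 and 576 by their brightest probe sets. The mesenchymal marker COL1A2 read only 72.0 and 54.6. The other VIM probe set read 10.7 and 9.45, and the next brightest of COL1A1 87.6 and 88.0. Bright readings of mesenchymal markers in both arrays thus rested on the brightest probe sets of VIM and COL1A1. Of the leukocyte markers, PTPRC did not pass, at 24.6 and 27.5, but CD3E did, at 82.0 and 71.4. The endothelial markers PECAM1 (72.4 and 76.1) and CDH5 (67.2 and 65.3) also passed. The poly-A spike-ins, which are bacterial transcripts mixed into the RNA, had log2 differences below 0 on all 24 of their probe sets (median -0.75). Their part in the results below, and that of the markers, was not tested, and differences are relative to the scale of the deposited values. In such bulk RNA, fewer cells that express a gene and less of its RNA per cell cannot be told apart.

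Mitochondrial ribosomal protein genes leaned lower in the array labelled Sox2, by little. Of all 75 members, 53 (70.7%) had a log2 difference below 0, against 50.4% of all 19775 genes, and their median was -0.12, against -0.0034. To enter the counts that follow, the higher of a gene's 2 intensities had to reach 34.25, the median of all probe set values. It was reached by 65 members and 14253 genes. Among these 65, 46 lay below 0 and the median was -0.089. That filter let 59 members through on both arrays, 6 on the control array alone and 0 on the array labelled Sox2 alone, and those 6 had to be lower. At least 2-fold lower were 2 of the 65, MRPL54 and MRPL23, against a background of 0.645% of genes past the filter. None of the 65 was at least 2-fold higher, where the background was 2.05%. At 1.5-fold, 7 of the 65 were lower (background 3.77%) and 3 were higher (background 6.46%). The only spread these arrays give is technical. Across 5491 genes whose brightest and next probe sets could be compared, the robust SD of 1 probe set's difference was 0.27. Culture and array variation do not enter it.

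**Figure D2:**
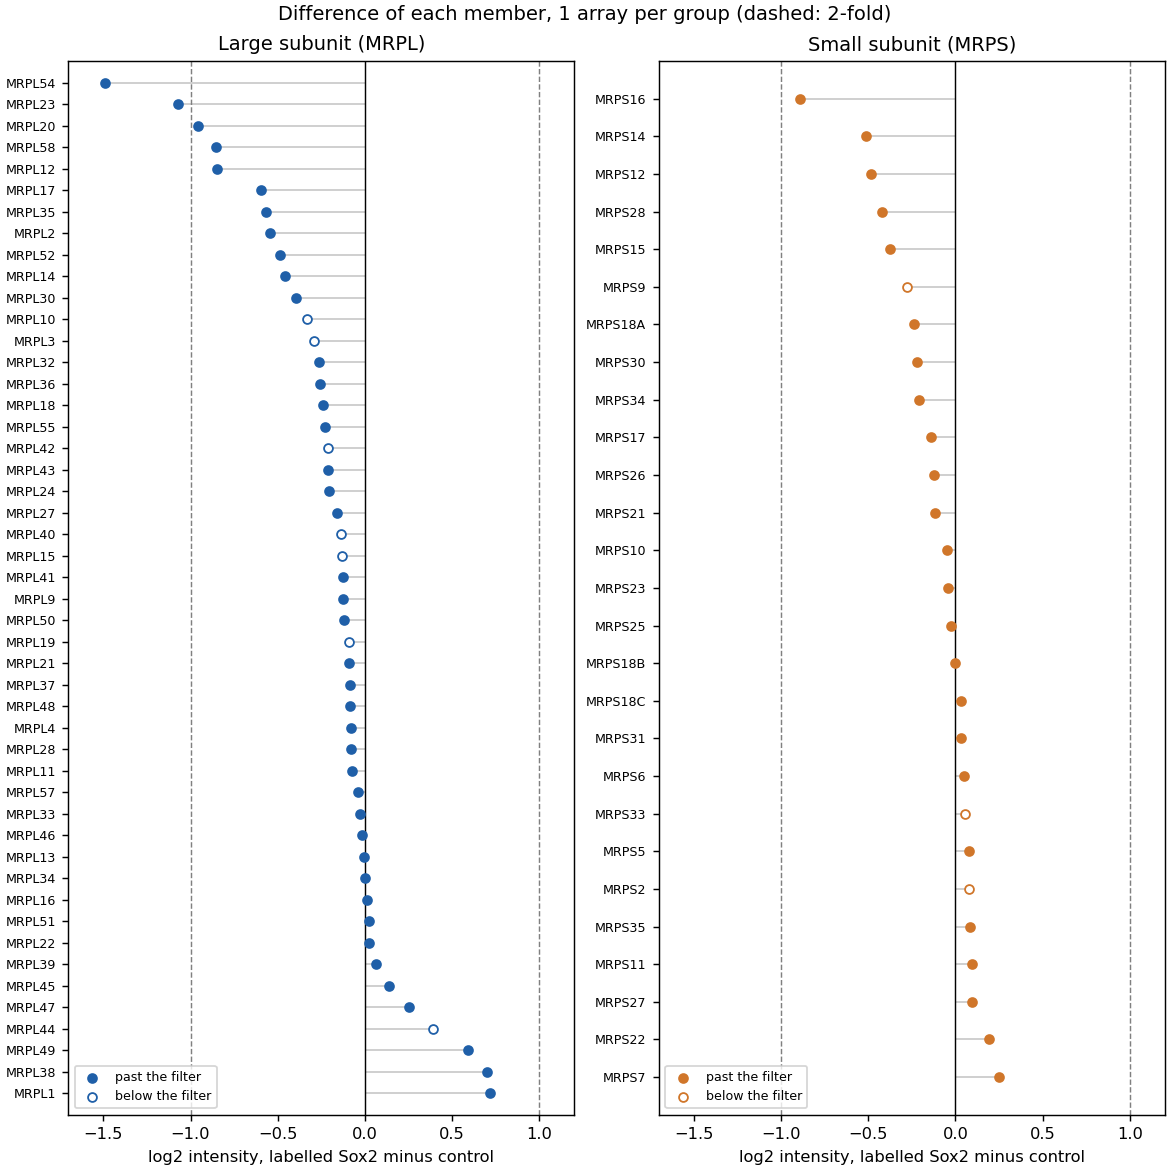
Log2 difference (x axis, labelled Sox2 minus labelled control) of the brightest probe set of each of the 48 MRPL and 27 MRPS genes (rows), with open circles for the 10 below the filter and dashed lines at 2-fold. MRPL54 and MRPL23 lie beyond the lower line and no gene lies beyond the upper one. The 27 MRPS genes, fewer than the 48 MRPL genes, span a narrower range, though the robust SD past the filter was alike (0.21 for MRPL, 0.20 for MRPS).

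By their medians, large subunit genes lay lower than small subunit genes by a small margin that depended on the processing and was not tested. Past the filter, 31 of 41 MRPL genes were below 0 with a median of -0.12, and 15 of 24 MRPS genes with a median of -0.044. These counts include the genes that passed on the control array alone and had to be lower. They were MRPL30, MRPL35, MRPL36 and MRPL58 in the large and MRPS14 and MRPS28 in the small subunit. Without the filter the counts were 37 of 48 and 16 of 27, and the medians -0.12 and -0.042. Between the subunits the gap in medians was -0.073. It ran from -0.11 without _x_at and _s_at probe sets and -0.098 with the filter at the 75th percentile to -0.043 with the filter on the mean, -0.037 under lowess centring, -0.033 with the mean of all probe sets and -0.0076 under quantile normalization, and it turned to 0.0020 when each gene was given the probe set with its largest difference. The genes that passed also changed, to 38 MRPL and 15 MRPS genes in that last setting and 18 and 10 in the first. In range, MRPL genes ran from -1.49 to 0.72 and MRPS genes from -0.89 to 0.25. A range widens with the number of genes, and the robust SD across genes was alike, 0.21 for MRPL and 0.20 for MRPS. All 3 members that were at least 1.5-fold higher were MRPL genes, as were 6 of the 7 that were at least 1.5-fold lower. MRPL genes also made up most of the members past the filter, 41 of 65, and these small counts were not tested. Structures of the human mitoribosome place MRPS30 and MRPS18A in the large subunit in spite of their names, and counting them there gave medians of -0.12 and -0.033.

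**Figure D3:**
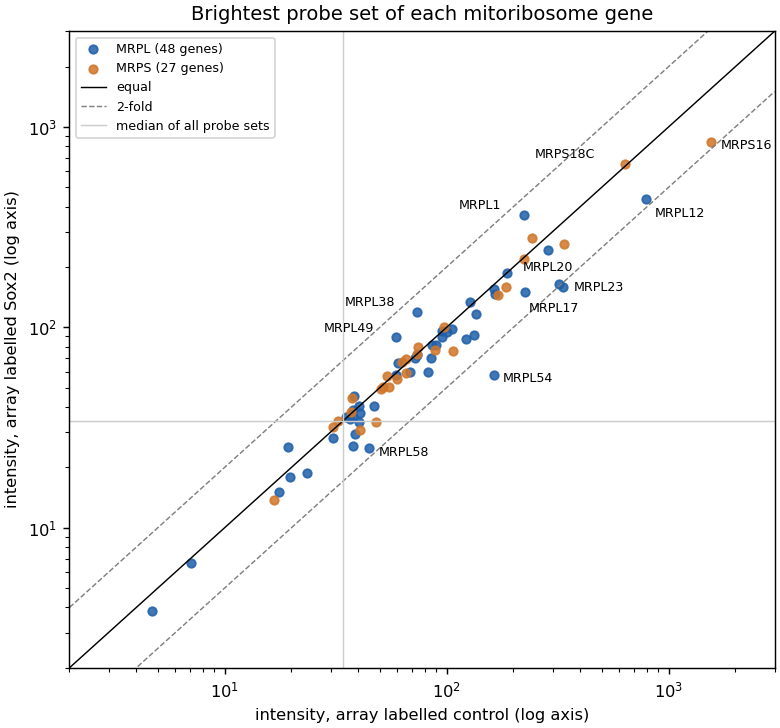
Intensity in the array labelled Sox2 (y axis, log) against the array labelled control (x axis, log) for the brightest probe set of the 75 members, with lines of equality, of 2-fold difference and of the median of all probe sets. Most genes follow the line of equality, and MRPL54 lies farthest from it, at 57.9 against 163.

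MRPL54, a large subunit protein with no bacterial counterpart, differed most. At 57.9 (labelled Sox2) against 163 (labelled control) it was 2.81-fold lower, a log2 difference of -1.49. A single probe set reads it, so no other probe set could be set beside it. Genes of a like level had a robust SD across genes of 0.26, in 1 of 20 bins by level.

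Proteins around the exit of the peptide tunnel, where the new chain leaves the large subunit, were mixed. MRPL23, the counterpart of a bacterial protein at the rim of the exit, read 159 against 333 in the control, 2.10-fold lower. Across genes of its level the robust SD was 0.47, wider than for MRPL54. Its other probe set, past the filter on the control array alone, read 27.0 against 36.9, a log2 difference of -0.45 against -1.07 by the first. MRPL17 read 149 against 226, 1.51-fold lower, by its only probe set. MRPL45, which lies at the exit and ties the ribosome to the inner membrane, read 66.3 against 60.3, a log2 difference of 0.14. Of other counterparts of bacterial exit proteins, MRPL22 differed by 0.024, MRPL24 by -0.20, MRPL32 by -0.26 and MRPL47 by 0.25. MRPL47 had another probe set past the filter, at -0.078. The values above 0 in this group, and those of MRPL24 and MRPL32 below it, were all smaller in size than the technical SD of 0.27. The group thus held 1 of the 2 genes beyond 2-fold and also genes on the other side of 0.

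Proteins of the stalks, which handle translation factors and the leaving tRNA, also lay on both sides. MRPL12, the mobile stalk protein, which also binds the mitochondrial RNA polymerase, read 438 against 788, 1.80-fold lower. Its other probe set read 60.7 against 66.7, a log2 difference of only -0.14, and across genes as bright as its first the robust SD was 0.69. MRPL11, at the base of that stalk, differed by -0.076, and MRPL10, which holds the MRPL12 copies, was below the filter at 18.8 against 23.6. MRPL1, the counterpart of the protein of the other stalk, was the member with the largest difference upward, at 365 against 222, 1.64-fold higher, by a single probe set. Across genes of its level the robust SD was 0.47.

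Other large subunit genes named by size of difference were MRPL20, MRPL58, MRPL35, MRPL38 and MRPL49. MRPL20, whose bacterial counterpart acts early in subunit assembly, read 165 against 320, 1.94-fold lower and just under the 2-fold line. Genes of its level had a robust SD of 0.47. A second MRPL20 probe set past the filter read 67.5 against 68.8, a log2 difference of -0.026. MRPL58, a peptidyl-tRNA hydrolase built into the ribosome, read 24.9 against 44.9, 1.81-fold lower, and passed the filter on the control array alone. MRPL35 passed in the same way, at 25.5 against 37.7. Across genes as dim as MRPL58 and MRPL35 the robust SD was 0.49. MRPL38 read 120 against 73.7, 1.63-fold higher, while its other probe set, below the filter, read 25.7 against 29.8. MRPL49 read 89.0 against 59.1, 1.51-fold higher, by its only probe set.

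Genes with a bacterial counterpart and genes without one are set here against the 50.4% of all genes past the filter that lay below 0. Of 26 conserved large subunit genes past the filter 21 were below 0, with a median of -0.18, and of 14 particular to mitochondria 9 were, with a median of -0.063. In the small subunit the counts were 8 of 13 conserved genes (median -0.12) and 5 of 9 particular to mitochondria (median -0.0045), the last a share of 55.6%, near the background. Without the filter the last class held 5 of 10 below 0, with a median of 0.014. The difference between these classes was not tested. Among the conserved large subunit genes, MRPL2, whose bacterial counterpart lies near the peptidyl transferase centre, read 91.4 against 133 and MRPL14 59.8 against 82.0. MRPL4, whose counterpart lines the tunnel, read 89.9 against 95.2, and MRPL13 read 186 against 187. These 4, like the other genes outside the naming rule, were named after their values were seen.

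In the small subunit MRPS16 alone passed 1.5-fold. This counterpart of bacterial protein S16 read 840 against 1558, 1.85-fold lower, where genes of its level had a robust SD of 0.69. Its second probe set, below the filter, read 27.8 against 30.5. MRPS14, a protein of the head of the subunit, read 33.8 against 48.2, and MRPS28 30.6 against 40.9, both past the filter on the control array alone.

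MRPS12, a protein of the decoding centre, was read by 3 probe sets past the filter that disagreed. By the chosen one it read 76.0 against 106, a log2 difference of -0.48, and by the others 84.1 against 80.7 and 49.8 against 43.0. MRPS15, which binds the small ribosomal RNA directly, was read at 260 against 338 (-0.38) by the brightest of 4 probe sets. The second, past the filter on the control array alone, read 33.5 against 45.2 (-0.43), and those below the filter read 17.1 against 11.5 (0.57) and 13.6 against 13.0 (0.064). MRPS7, an organiser of the head, was the small subunit gene highest above 0, at 44.5 against 37.5, a log2 difference of 0.25. MRPS22 came next at 278 against 243 (0.19), and MRPS27, a protein of the pentatricopeptide repeat kind that binds RNA, read 67.4 against 63.0 (0.097).

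The 3 paralogs of bacterial protein S18 differed little. MRPS18A read 145 against 171, a log2 difference of -0.24, and -0.17 by its other probe set. MRPS18B read 73.5 against 73.8, and MRPS18C 654 against 639. The signs of the last 2 turned under lowess centring or quantile normalization, which gave -0.10 and -0.18 for MRPS18C and 0.0041 under lowess for MRPS18B, and the other 63 members past the filter kept theirs under median centring, lowess centring and quantile normalization. MRPS30 read 159 against 185, a log2 difference of -0.22.

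The 10 members below the filter are given by level. These were MRPL3, MRPL10, MRPL15, MRPL19, MRPL40, MRPL42, MRPL44, MRPS2, MRPS9 and MRPS33. The dimmest, MRPL3, read 3.84 against 4.70, and the nearest to the filter, MRPS2, 34.2 against 32.5. MRPL44 had the highest difference among them, 0.39, at 25.3 against 19.3.

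The probe sets that the rule passed over gave a second reading of part of the members. Of 75 members, 38 had 1 probe set and 37 had from 2 to 5. For 20 members the second brightest also passed the filter. By that second reading, 9 of 11 MRPL genes and 4 of 9 MRPS genes lay below 0, with medians of -0.14 and 0.017, against 0 over the 5491 genes compared in the same way. In 3 of the 20, MRPL23, MRPL43 and MRPS15, the second probe set passed on the control array alone and had to be lower. Without them 7 of 9 MRPL and 3 of 8 MRPS genes lay below 0, with medians of -0.078 and 0.038. None of the 20 reached 2-fold, and their lowest value was -0.47. Their sign matched that of the brightest probe set in 14 of 20 members (70.0%), against 54.8% of all genes compared, and in 11 of the 17 whose second probe set passed on both arrays. The Pearson correlation of both readings was 0.42 over these 20 members and 0.30 over all genes compared, as a description, since the readings share their arrays and genes are not replicates. Taking all probe sets past the filter, 10 of the 20 members had every one below 0, 2 had every one above, and 8 had them on both sides. Counting only probe sets that passed on both arrays, 7 of 17 members had every one below 0, 2 every one above and 8 both. MRPL41 had the widest range after MRPL20, from -0.36 to 0.44 over 4 probe sets, and MRPS18C the narrowest, with 0.033 and 0.017.

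**Figure D4:**
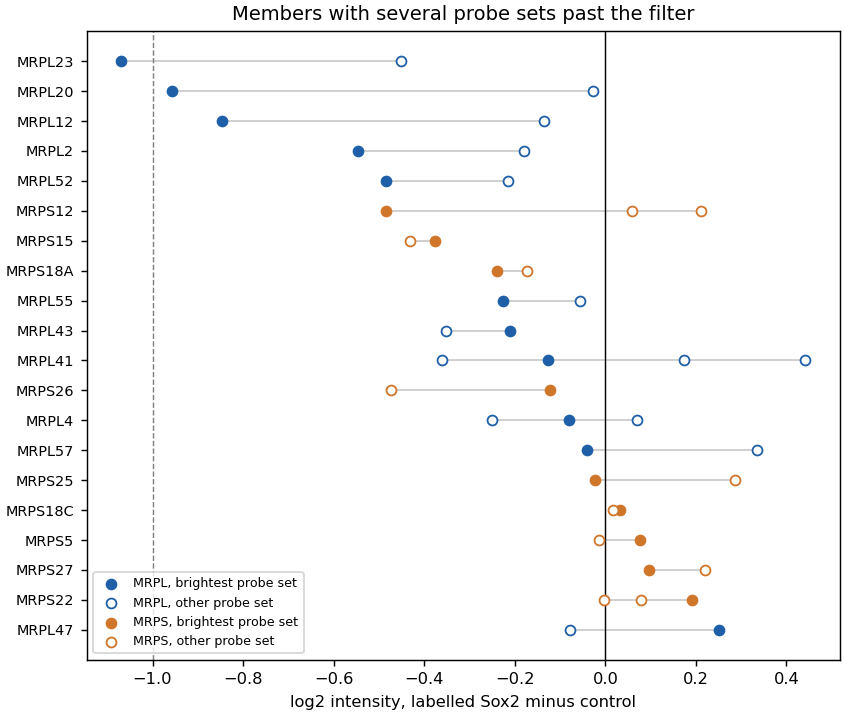
Log2 difference (x axis, labelled Sox2 minus labelled control) of each probe set past the filter for the 20 members (rows) with more than 1, filled for the brightest and open for the others. For MRPL23, MRPL20 and MRPL12 the open points lie nearer to 0 than the filled ones, at -0.45, -0.026 and -0.14.

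Processed pseudogenes are common in this family and can share probe sequence with the parent gene. RefSeq lists 98 pseudogenes under the names of 39 members. Members without one had a median of -0.16 (31 past the filter) and members with one -0.061 (34 past the filter). Of the 65 members past the filter, 39 were read by a probe set ending in _s_at, which may read several transcripts (median -0.12, 31 below 0). Another 4 were read by one ending in _x_at, which may read unrelated sequence, and 22 by other probe sets (median -0.064, 13 below 0).

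Members were short genes, and short genes in general read slightly lower in the array labelled Sox2. The median genomic length was 8592 bases for members past the filter and 24437 for all genes past it. Across 14233 genes with a length, the difference grew by 0.029 on the log2 scale per doubling of length. Genes were cut by length into 5 groups of equal size. In the shortest group the 28 members had a median of -0.18 and all 2847 genes -0.058. In the next, 20 members had -0.085 and all genes -0.028. The 3 groups of longer genes held 7, 7 and 3 members, with medians of -0.024, 0.033 and 0.097 against -0.0038, 0.028 and 0.050 for all genes. Of these 17 longer members 8 lay below 0, against 38 of the 48 shorter ones. Of all genes, 58.5% lay below 0 in the shortest group and 53.9% in the next. In the 3 groups of longer genes the shares were 50.4%, 46.1% and 43.1%. With the linear trend removed, the medians were -0.11 for MRPL and -0.042 for MRPS genes.

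By their medians, mitochondrial ribosomal genes lay between all genes and 2 related sets. Cytosolic ribosomal proteins past the filter had a median of -0.32, with 50 of 53 below 0, and 1 gene at least 2-fold lower. Their median intensities were 934 (labelled Sox2) and 1257 (labelled control), against 73.5 and 74.3 for members. In the brightest of the 20 bins by level the robust SD across genes was 0.69. Nuclear-encoded respiratory chain and ATP synthase subunits had a median of -0.23, with 45 of 59 below 0, and 3 genes at least 2-fold lower. Among all genes past the filter 50.4% lay below 0 and 0.645% were at least 2-fold lower. With 1 array per group the differences between these sets could not be tested.

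**Figure D5:**
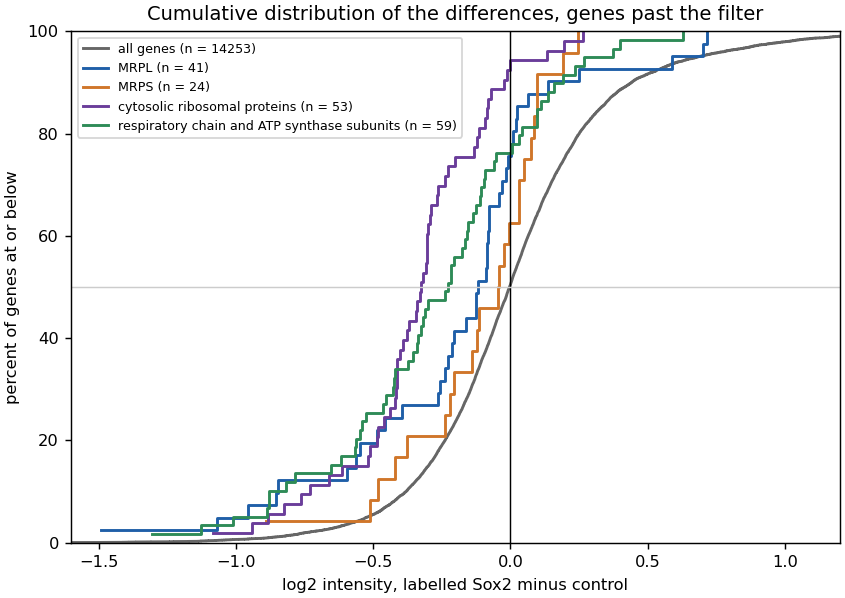
Cumulative percent of genes past the filter (y axis) at or below a log2 difference (x axis, labelled Sox2 minus labelled control) for MRPL, MRPS, cytosolic ribosomal, respiratory chain with ATP synthase, and all genes. At 50 percent the curves stand in the order -0.32 (cytosolic ribosomal), -0.23 (respiratory chain), -0.12 (MRPL), -0.044 (MRPS) and -0.0032 (all genes).

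Other genes of mitochondrial translation were few beyond 1.5-fold. Of 5 mitoribosome proteins with other names, 4 were below 0 and none reached 1.5-fold. GADD45GIP1, a large subunit protein at the exit tunnel, differed most, at 166 against 230, with other probe sets at -0.085 and -0.25. Of 8 translation factors past the filter, 7 were below 0 (median -0.16), and of all 14 without the filter 9 were (median -0.13), against 50.4% of genes in either case. GFM1, an elongation factor that moves the ribosome along the mRNA, read 249 against 421 by its brightest probe set but 148 against 57.1 by another, so its probe sets pointed in opposite directions. Assembly and rRNA modification factors were balanced, with 14 of 28 below 0 and a median of 0.0013. MALSU1, which guards the joining face of the large subunit during assembly, read 663 against 1164 (1.76-fold lower), and -0.41 by its second probe set.

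Genes that transcribe or replicate mitochondrial DNA and known regulators of mitochondrial genes also stayed under 2-fold. Of 8 in the first list 6 were below 0 (median -0.13), with the largest difference for POLG, the mitochondrial DNA polymerase, at 60.5 against 47.1 and with other probe sets at -0.32 and -0.049. Of 9 regulators 3 were below 0 (median 0.076). YY1, a zinc finger factor, read 1897 against 1135, 1.67-fold higher. By 3 further YY1 probe sets past the filter the log2 differences were 0.82, 0.14 and -0.044.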

How the data were processed

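Biotin-labelled cRNA of 2 samples was read on 1 array each (54675 probe sets). The deposited values are linear probe set intensities, 1 to 19811, and RMA is the only tool in the submitters' processing notes, with settings and the return to a linear scale not given in the sources used here. Genes came from the platform annotation (41091 probe sets with 1 gene, 1801 with several), with symbols updated through RefSeq identifiers.

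Intensities were taken to log2 with no further scaling. Members, lists and tests were chosen with earlier results of these data known. Named members are those of at least 2-fold, the 10 MRPL and 8 MRPS genes with the largest difference, the 3 with the widest and the 3 with the narrowest probe set range, and 7 named for their role (MRPL12, MRPL45, MRPS12, the MRPS18 paralogs, MRPS30). From other lists, up to 4 members of 2-fold or the 1 with the largest difference are named. No p-value was computed, and counting was tested on simulated data. Alternatives covered probe set choice and naming, the filter, centring, quantile normalization, an offset of 16, genomic length and the fold size. The number of arrays limits precision. Python 3.11.15, numpy 2.4.6, pandas 2.3.3, statsmodels 0.14.6 and matplotlib 3.10.9 were used.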

Additional observations from a re-analysis of the deposited data

How the results depend on the processing

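The number of members at least 2-fold lower was 2 as deposited. It was 1, MRPL54, with the mean of all probe sets, without _x_at and _s_at probe sets, and with an offset of 16 added. It was 4 under lowess centring, where MRPL20 and MRPS16 joined, and 5 under quantile normalization, where MRPL12 also joined. At 1.5-fold, 7 were lower and 3 higher, and at 3-fold 0 were lower. The count of members at least 2-fold higher was 0 under every alternative at 2-fold. The MRPS median moved from -0.044 to -0.14 with the probe set of the largest difference, where 15 rather than 24 MRPS genes passed the filter. It moved to -0.12 under quantile normalization. The MRPL median kept its sign and ran from -0.087 to -0.14. Of 251 values of single named members under the alternatives, 232 stayed within the technical SD of 0.27 and 19 moved further. No member of at least 2-fold changed sign. Among other named members, MRPL35 (0.39), MRPS14 (0.48) and MRPS18B (0.054) lay above 0 without _x_at and _s_at probe sets. With the probe set of the largest difference MRPS15 (0.57), MRPL41 (0.44) and MRPS18B (0.054) lay above 0 and MRPS18C (-0.58) below. Under both of these settings the turned values, except that of MRPL41, came from probe sets below the filter, for example MRPS14 at 9.65 against 6.91. With the mean of all probe sets MRPL41 (0.061) and MRPS18B (0.025) lay above 0 and MRPS18C (-0.18) below. With the length trend removed MRPL41 (0.0035) and MRPS18B (0.018) lay above 0. No MRPS36 probe set was matched, so leaving it out changed nothing. No paired analysis was possible because each group has 1 array. The low signal and the 2 arrays limit what can be seen, and a missing 2-fold difference does not show that a gene was unchanged.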

Other observations

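Probe sets that name a member together with another gene entered nothing above except the alternative that kept them. The one shared by MRPL53 and CCDC142 read 89.3 (labelled Sox2) against 57.4 (labelled control), a log2 difference of 0.64. The one shared by MRPL51 and SPTLC1 read 69.3 and 68.9, and the one shared by MRPS24 and a read-through transcript 17.2 and 17.8.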
